A study of Equus caballus with 37 samples.

Results

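The 150 genes described here were selected on their measured T1 level, as those with the largest score for a peak in March (T1, after slow canter) in the blood of Arabian racehorses. For each gene the median log2 CPM (counts scaled to a common library total) was taken in each of 4 training periods, and the score was the T1 median minus the highest of the other 3 medians. Of 26991 genes with counts deposited, 12025 passed the filter on low counts and 7918 had a mean log2 CPM of at least 3. Of these, 745 had a score of at least 0.6 and an identifier not printed in the paper, and the 150 with the highest scores were kept. T1 values therefore chose the genes, and every contrast of T1 with another period is given as a description without a test.

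Jugular blood had been collected into RNA-stabilising tubes from Arabian mares and stallions, and total RNA was sequenced in 37 libraries. Untrained horses (T0, 2 mares and 4 stallions) were sampled in October, and the labels give an age of 2.5 years for 5 of them and of 3 years for 1. The trained horses were labelled as 3 years old. They were sampled in March after slow canter (T1, 5 mares and 7 stallions), in May after intense gallop (T2, 4 mares and 7 stallions) and in October, when racing had ended (T3, 4 mares and 4 stallions). The trained horses were sampled repeatedly, but no label identifies a horse. Periods were therefore treated as unrelated groups, and p-values measure the spread between these libraries. Between T0 and T2, training, season and age cannot be told apart. T0 and T3 were both sampled in October and differ in training and in the labelled age of 5 of the 6 untrained horses, while among trained horses training phase and season cannot be told apart.

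Whole blood RNA comes from a mixture of neutrophils, lymphocytes, monocytes, platelets and young red cells. Exercise and conditioning are known to move cells between the spleen, the vessel wall and the circulation, and to change transcription in leukocytes. In bulk blood, fewer cells of a type and less RNA per cell cannot be told apart. The count table carries gene identifiers without names, and none of them matched the reference table of names. The paper names some identifiers, but those genes were not eligible. The blood cell types and the functions of the 150 genes were therefore not examined. Identifiers are given for 4 of the genes: 1 with the highest score, the 1 with the largest called rise from T0 to T2, the 1 with the largest called fall from T2 to T3, and 1 that fell from T2 to T3 and was lower in T3 than in T0.

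Library totals ranged from 3810631 to 14932603 counts, with a median of 10611594. The libraries differed in their TMM factor, which rescales a library's total when a few genes take a large share of its counts. This factor lay between 1.17 and 1.24 in T0, between 0.949 and 1.21 in T2 and between 1.05 and 1.25 in T3. In T1 it ran from 0.41 to 1.14. In 5 of the 12 T1 libraries, replicates 1, 2, 3, 4 and 11 (4 mares and 1 stallion), it was under 0.7, whereas the other 7 (1 mare and 6 stallions) had factors from 0.922 upwards. They also had fewer genes detected, 11559 to 14108 beside 14039 to 15208 in the other 7, and their 10 genes with most counts took 8.97% to 12.1% of all counts beside 7.66% to 9.15%. The part of these differences in the results was not tested. The paper's supplement lists its lowest unique mapping rates for T1 samples. Its T1 samples numbered 1, 2, 3, 4 and 11 had the 5 lowest rates of T1. These are also the numbers of the 5 replicates of low factor, but no label ties its sample numbers to libraries. The rates were therefore not used, and the part of mapping in the results was not tested. Because the 5 libraries had lower factors than all others, the main results that include T1 are given with and without them.

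The score of the 150 genes ran from 0.89 to 2.20 with a median of 0.99, which is a 1.99-fold higher T1 level than in the next highest period. The gene ranked last had a score of 0.88525 and the first gene outside the limit one of 0.883911, so the limit cut through closely spaced values. The median difference in log2 CPM between T1 and the other periods was 1.31 for T0, 1.01 for T2 and 1.55 for T3. Over all 12025 genes the same differences were -0.05, -0.05 and -0.04. Without the 5 T1 libraries of low factor, the differences of the 150 genes were 0.86 for T0, 0.52 for T2 and 1.12 for T3.

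After T1, the next highest period was T2 for most of the genes. In 86 genes the medians followed the order T1, T2, T0, T3, in 35 the order T1, T2, T3, T0, and in 21 the order T1, T0, T2, T3. The order T1, T3, T2, T0 was found in 7 genes and T1, T3, T0, T2 in 1. T3 was thus the lowest period in 107 genes and T0 in 42, and without the 5 libraries in 106 and 43. The order T1, T2, T0, T3 was then found in 92 genes. The most common course was thus a peak in March, a lower level in May and the lowest level in trained horses in October.

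The mean log2 CPM of the 150 genes was 5.46 ± 0.09 (SD, n = 6) in T0, with a lowest, median and highest library of 5.33, 5.47 and 5.57. In T1 it was 7.22 ± 1.08 (SD, n = 12), with a lowest, median and highest library of 5.85, 6.71 and 9.04. In T2 it was 5.91 ± 0.35 (SD, n = 11), from 5.54 through a median of 5.79 to 6.43. In T3 it was 5.39 ± 0.29 (SD, n = 8), from 5.10 through a median of 5.27 to 5.83. All T1 libraries lay above all T0 libraries and above all T3 libraries, while T1 and T2 overlapped.

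**Figure D1:**
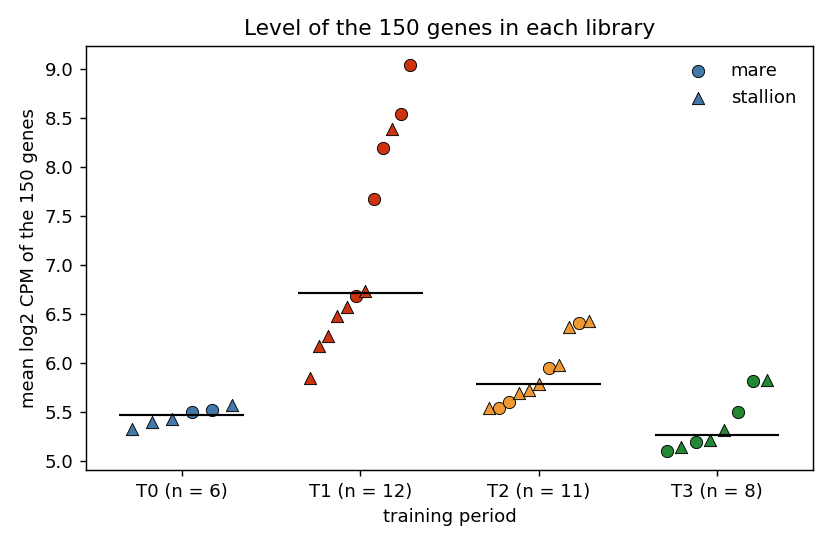
Mean log2 CPM of the 150 genes in each library (vertical axis) by training period (horizontal axis), with circles for mares, triangles for stallions and a line at the period's median. The 12 T1 libraries ran from 5.85 to 9.04, and 5 of them lay at 7.68 or above, higher than every other library.

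The T1 libraries did not share 1 level. In the 5 libraries with a factor under 0.7 the mean log2 CPM of the genes lay between 7.68 and 9.04, and in the other 7 between 5.85 and 6.74, so the 2 sets of libraries did not overlap. The highest T1 library was one of the 5 in all 150 genes, and it was replicate 11 in 113 of them. All 5 lay above all other 32 libraries in 122 genes. Replicate 6, a stallion with the highest TMM factor of T1, was the lowest T1 library in 104 genes.

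The number of genes that exceeded all 25 libraries of T0, T2 and T3 was counted for each T1 library. It was 149 in replicate 11, 148 in replicate 1, 147 in replicate 2, 141 in replicate 3 and 137 in replicate 4. In the other T1 libraries it fell from 85 in replicate 9 and 64 in replicate 8 to 3 in replicate 7 and 1 in replicate 6. No gene had all 12 T1 libraries above the 25 others, and the genes had between 2 and 9 such libraries, most often 6 or 7 (52 and 47 genes). Measured against the highest median of the other periods instead, replicate 6 was still above it in 89 genes and each of the 5 libraries in all 150.

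**Figure D2:**
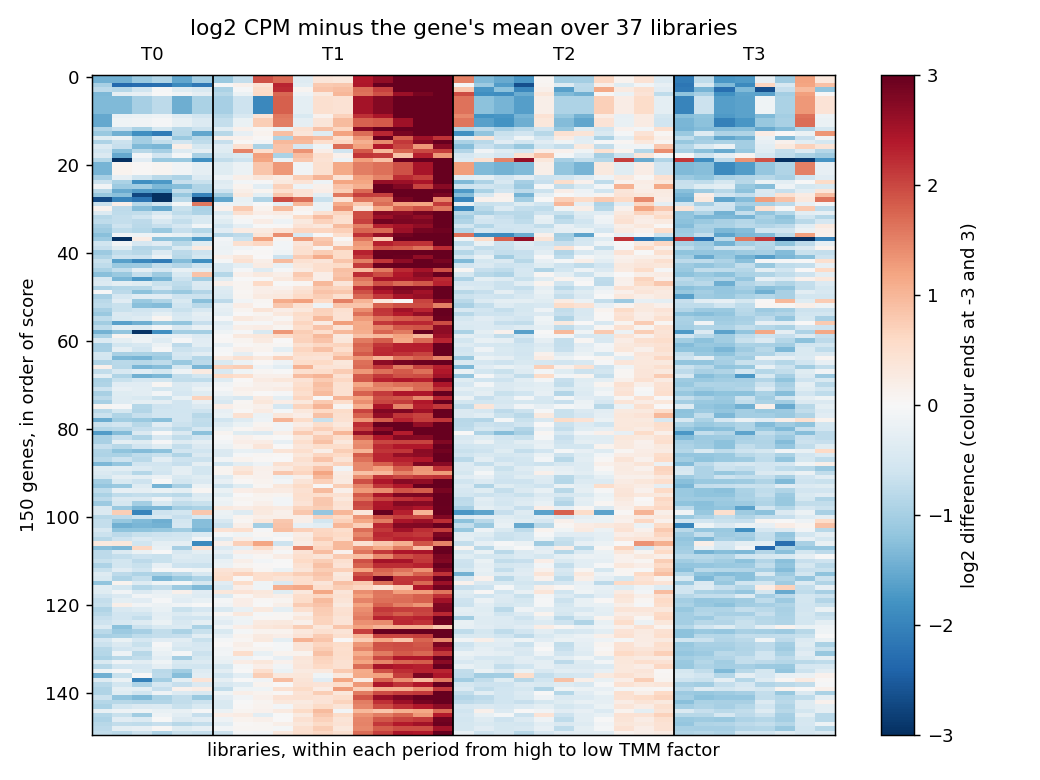
Log2 CPM of each of the 150 genes (rows, from the highest score down) minus its mean over 37 libraries, with libraries as columns ordered within each period from high to low TMM factor. The 5 columns at the right end of T1 are dark red in nearly all rows, and 122 genes had all 5 above all other 32 libraries.

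The spread within T1 was wide with all 12 libraries and rested on the 5 of low factor. The SD of log2 CPM in T1 had a median of 1.13 over the 150 genes, with a range of 0.41 to 2.01. The same median was 0.28 in T0, 0.44 in T2 and 0.32 in T3. In 144 genes T1 had the largest SD of the 4 periods. Without the 5 libraries the median T1 SD of the 150 genes was 0.40, below that of T2, and T1 had the largest SD in 43 genes. With all 12 libraries, the median T1 SD of all 7918 genes with a mean log2 CPM of at least 3 was 0.57, beside 1.13 for the 150. The SD of all genes without the 5 libraries is not given.

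The level of the genes followed the TMM factor within T1. Ordered by falling factor and by rising mean log2 CPM of the genes, the 12 T1 libraries took the same place in both orders in 12 of 12 cases. The same held for 4 of 6 libraries in T0, 4 of 11 in T2 and 0 of 8 in T3. The largest gap between the places of a library in both orders was 1 in T0, 4 in T2 and 2 in T3. Outside T1 the level thus also rose broadly as the factor fell. In T2, replicate 7 had both the lowest factor, 0.949, and the highest level, 6.43. The factor divides into the scaled level, so the 2 measures are not independent. The share of all counts that fell on the genes, which uses no factor, was 2.84% to 3.94% in T0, 4.24% to 15.2% in T1, 3.29% to 5.52% in T2 and 2.46% to 3.70% in T3. Without the 5 libraries the T1 share ran from 4.24% to 6.42%, which overlapped T2 and lay above T0 and T3. The part of the TMM factor in the T1 peak was not tested.

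**Figure D3:**
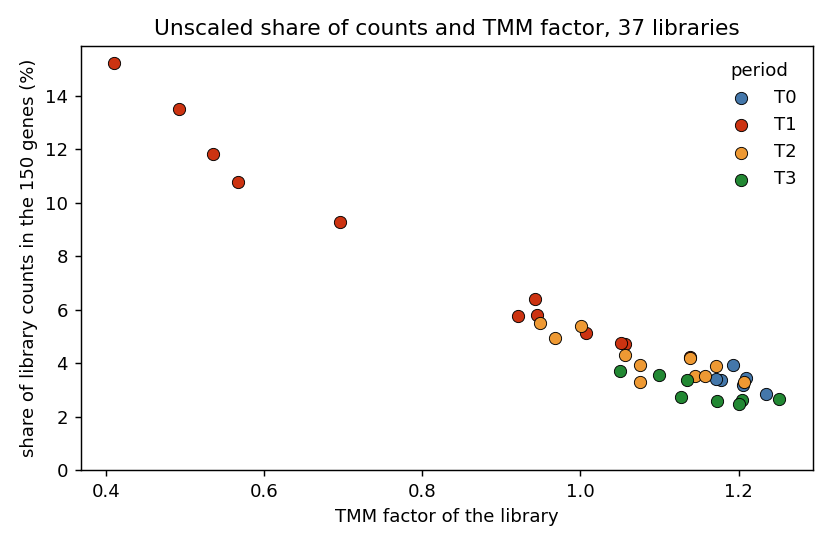
Share of each library's counts in the 150 genes, in percent and without scaling (vertical axis), against the TMM factor of the library (horizontal axis), with a point per library coloured by period. The 5 T1 libraries with a factor under 0.7 had shares of 9.27% to 15.2%, and all other libraries had shares of at most 6.42%.

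The peak was smaller when the 5 libraries were left out. The median score of the genes was then 0.51, with a range of -0.52 to 0.89, and it was above 0 in 148 genes and at least 0.6 in 42. With all limits applied to the remaining libraries, 80 genes qualified, and 42 of them were among the 150. Without TMM factors the median score was 0.69, all 150 genes stayed above 0, 106 of them were at 0.6 or more, and 135 genes qualified. Leaving out the factors moved the median of all genes in T1 from 4.06 to 3.97, and in T0 from 4.22 to 4.48, while the genes' own T1 median moved from 6.71 to 6.61. The median score was thus smaller in both settings. Single genes could differ, since the scores of ranks 1, 2 and 6 to 9 were higher without TMM factors (2.23 and 1.46).

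**Figure D4:**
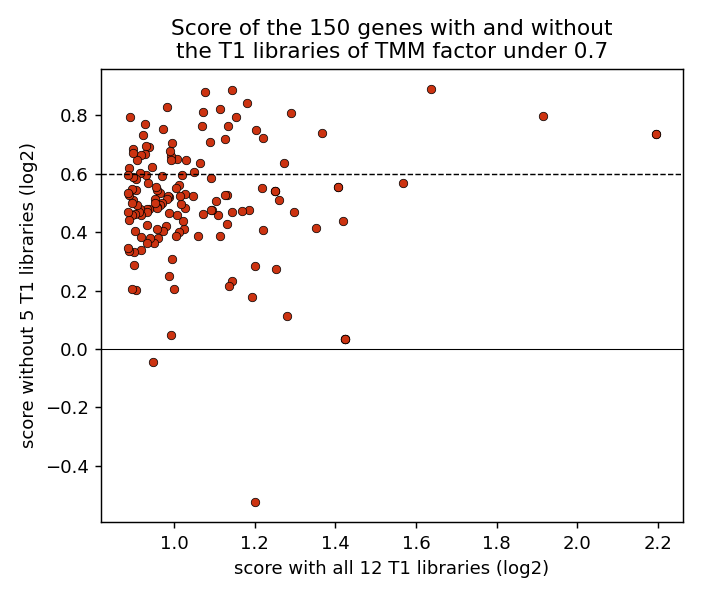
Score of each of the 150 genes without the 5 T1 libraries of TMM factor under 0.7 (vertical axis, log2) against its score with all 12 T1 libraries (horizontal axis, log2), with a dashed line at 0.6 and a solid line at 0. Of the points, 42 lie at or above the dashed line and 148 above the solid line.

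Several genes could not be separated from each other by their counts. A total of 11 genes, in 4 sets of 4, 3, 2 and 2, had the same counts in all 37 libraries as the other genes of their set, out of 20 such genes among 12025. The 150 genes thus held 143 distinct profiles. RSEM divides reads among gene models that share sequence, so the values of these genes are uncertain. The pair at ranks 1 and 2 and the set of 4 at ranks 6 to 9 had equal counts in 36 libraries and differed in 1, T1 replicate 10, with 512 against 32 counts. With that difference alone, the pair had a score of 2.20 and the set of 4 one of 1.42.

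ENSECAG00000027228, 1 gene of the pair with the highest score, had a CPM of 4.40, 5.46 and 7.05 in the lowest, median and highest T0 library. In T1 these values were 6.12, 46.7 and 195, the T2 values were 3.85, 10.02 and 38.05, and those of T3 were 3.02, 7.03 and 30.6. The 5 T1 libraries with low factors had 70.3 or more and lay above all other libraries, and the other 7 T1 libraries ran from 6.12 to 50.3 and overlapped T0, T2 and T3. Its score was 0.74 without the 5 libraries. Between T0 and T2 its level rose by 1.21 ± 0.42 on the log2 scale (SE, adjusted p = 0.03), with libraries that overlapped.

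The member with the highest mean CPM, rank 98, showed the common pattern at a high count. Its CPM was 1619, 2120 and 2509 in the lowest, median and highest T0 library, and 3039, 5385 and 49984 in T1. It was 1864, 2755 and 4941 in T2 and 1443, 1629 and 2082 in T3. All T1 libraries lay above T0 and T3, and the 5 libraries of low factor, at 13892 or more, lay above every other library. The gene rose from T0 to T2 by 0.57 ± 0.18 (SE, adjusted p = 0.021) and fell from T2 to T3 by 0.84 ± 0.16 (SE, adjusted p = 0.00054).

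The smallest spread within T1 was found for rank 126, with an SD of 0.41. Its CPM was 4.19, 6.78 and 7.55 in the lowest, median and highest T0 library, 9.22, 17.0 and 23.3 in T1. The T2 values were 7.31, 8.96 and 13.7, and the T3 values were 5.49, 7.95 and 10.8. The T1 libraries lay above all T0 libraries and overlapped T2 and T3. Here the 5 libraries of low factor, at 17.3 to 23.3, overlapped the other 7, which ran from 9.22 to 17.8. Without the 5 libraries its score was 0.49.

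A few genes had their own variation between libraries. Ranks 20 and 38 had the widest spread in T3, with an SD of 2.24 and 2.71, and were chosen here after their values were seen. The CPM of rank 38 ran from 5.85 to 272 in T0 and from 150 to 5047 in T1. The T2 range was 51.0 to 1469 and the T3 range 6.91 to 1029, so all periods overlapped. The log2 CPM of the 2 genes had a Pearson r of 0.99 over 37 libraries, and the CPM of rank 38 was 3.00 to 11.4 times that of rank 20, without a correction for gene length. Outside T1 both genes were highest in T2 replicates 2, 9 and 10 and in T3 replicates 1, 5 and 7. In T2 replicates 7 and 1, which had the highest levels of the 150 genes in that period, the CPM of rank 38 was 71.1 and 51.0.

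The genes rose and fell together across libraries. Over pairs of the 143 distinct profiles the median Pearson r of log2 CPM was 0.88 over 37 libraries and 0.91 over the 12 T1 libraries. It was 0.56 over the 7 T1 libraries without the 5 of low factor and 0.56 over the 25 libraries of T0, T2 and T3. These values describe genes chosen for a shared pattern, and all genes of a library share its scaling factor.

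The periods other than T1 were compared with edgeR's quasi-likelihood test, fitted to the 2 periods concerned over all genes. Calls needed a fold change of 1.3 or more and an adjusted p (Benjamini-Hochberg) under 0.05. The score that chose the genes used the T0, T2 and T3 medians through the highest of them. That was T2 in 121 genes, T0 in 21 and T3 in 8, and the limit on mean log2 CPM used all libraries. The comparisons below are therefore not independent of the rule, and its part in the calls was not tested. All 150 genes were tested in each comparison.

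Between untrained horses and horses after the gallop phase (T0:T2), 73 of the 150 genes rose and 0 fell. This was 48.7% of the genes, beside 17.0% of all 11662 genes tested that rose and 16.5% that fell (33.4% called in either direction). The median log2 fold change was 0.46 for the 150 genes and 0.04 for all genes, and 144 of the 150 values were positive. All T2 libraries lay above all T0 libraries in 2 of the genes, beside 1.95% of all genes kept. The reverse held in 0, beside 5.81% of all genes kept. The TMM factor, 0.949 to 1.21 in T2 and 1.17 to 1.24 in T0, moved with the comparison, and its part in the result was not tested beyond the fits given here. With the log2 factor as a covariate edgeR called 0 of the 150 genes and 0 of all genes tested, with a median of -0.04 for the 150. Of the 150, 23 had an unadjusted p below 0.05, and the share of all genes at this p is not given for that fit. Without TMM factors it called 32 (21.3%, beside 30.5% of all genes tested). DESeq2, with no covariate, called 76 (50.7%, beside 35.4%). Leaving out T0 replicate 5 gave 43 called genes (28.7%, beside 25.9%). In all these settings every call was a rise, while the shares of all genes count calls in either direction.

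The largest rise from T0 to T2 was that of ENSECAG00000010847, at rank 29. Its CPM was 98.7, 246 and 762 in the lowest, median and highest T0 library, 450, 3763 and 36920 in T1. The T2 values were 342, 1509 and 3521, and the T3 values were 448, 1638 and 4050. T0 was low and overlapped the lowest libraries of each trained period, and the trained periods overlapped widely. It rose by 2.48 ± 0.46 from T0 to T2 (SE, adjusted p = 0.0016) and was higher by 2.55 ± 0.59 in T3 than in T0 (SE, adjusted p = 0.0068). The difference between T2 and T3 was 0.07 ± 0.42 (SE, adjusted p = 0.9) and changed sign when single libraries were left out. Its score was -0.52 without the 5 T1 libraries and 0.00022 without TMM factors, so its T1 peak depended on both choices.

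From the gallop phase to the season end (T2:T3), 97 of the 150 genes fell and 0 rose. This was 64.7% of the genes, beside 21.5% of all 11599 genes tested that fell and 22.5% that rose (44.0% called in either direction). The median log2 fold change was -0.62, with a range of -1.03 to 0.45, beside -0.05 for all genes, and 142 of the 150 values were negative. All T2 libraries lay above all T3 libraries in 2 of the genes, beside 1.21% of all genes kept. The reverse held in 0, beside 3.77% of all genes kept. With the log2 TMM factor as a covariate 54 genes fell and 6 rose, with a median of -0.34 and 25.6% of all genes called in either direction. In T2, replicates 7, 1 and 2 had the 3 highest levels of the genes (6.36 to 6.43) and the 3 lowest factors (0.949 to 1.001). Leaving out single libraries gave 92 called genes (61.3%, beside 41.1% of all genes tested, without T2 replicate 1) to 103 (68.7%, beside 45.4%, without T3 replicate 2).

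ENSECAG00000012241, at rank 114, had the largest fall from T2 to T3. Its CPM was 5.29, 5.998 and 7.93 in the lowest, median and highest T0 library, 12.7, 18.0 and 46.7 in T1. The T2 values were 3.83, 9.37 and 19.6, and the T3 values were 4.14, 4.69 and 7.51. T1 lay above T0 and T3, and T2 overlapped every other period. It fell by 1.03 ± 0.24 from T2 to T3 (SE, adjusted p = 0.0015) and rose by 0.77 ± 0.25 from T0 to T2 (SE, adjusted p = 0.023). The difference between T0 and T3 was -0.27 ± 0.17 (SE, adjusted p = 0.27).

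ENSECAG00000012041, at rank 118, was lowest at the season end. Its CPM was 19.0, 21.0 and 28.7 in the lowest, median and highest T0 library, 20.04, 45.8 and 78.7 in T1. The T2 values were 16.8, 23.4 and 49.0, and the T3 values were 8.91, 13.1 and 17.7. All T3 libraries lay below all T0 and all T1 libraries, and T2 overlapped T3. It fell by 0.93 ± 0.19 from T2 to T3 (SE, adjusted p = 0.00061) and was lower in T3 than in T0 by a log2 fold change of -0.71 ± 0.14 (SE, adjusted p = 0.0035). The difference between T0 and T2 was 0.23 ± 0.19 (SE, adjusted p = 0.34).

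Between the 2 October groups (T0:T3), the genes went both ways. In T3, 13 genes were higher (8.67%, beside 10.4% of all 11696 genes tested) and 30 were lower (20%, beside 9.21%), and 19.6% of all genes were called in either direction. The median log2 fold change was -0.19, with a range of -0.83 to 2.55, beside -0.01 for all genes. The T0 libraries lay above all T3 libraries in 5 genes, beside 1.23% of all genes kept. The reverse held in 0, beside 2.6% of all genes kept. The counts changed with single libraries: 27 genes were called without T0 replicate 4 (18%, beside 14.2% of all genes tested), 28 without T0 replicate 3 (18.7%, beside 14%) and 58 without T3 replicate 2 (38.7%, beside 20.1%). With DESeq2, 52 genes were called (34.7%, beside 21%). With the log2 TMM factor as a covariate 10 were higher and 52 lower (41.3% called, beside 20.7%), and without TMM factors 13 were higher and 45 lower (38.7%, beside 20.2%).

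**Figure D5:**
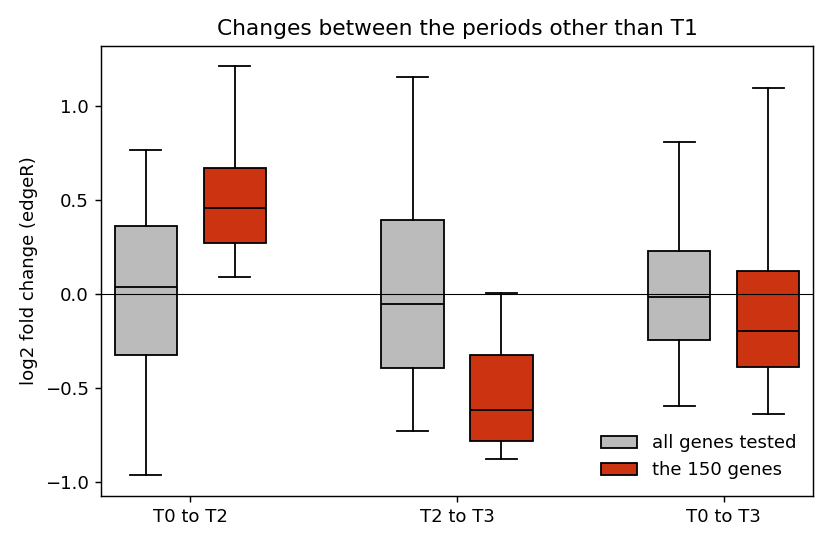
Log2 fold change from edgeR (vertical axis) in the comparisons without T1, for all genes tested (grey) and for the 150 genes (red). Boxes span the quartiles with a line at the median and whiskers reach the 5th and 95th percentiles, and the medians of the 150 genes were 0.46 from T0 to T2, -0.62 from T2 to T3 and -0.19 from T0 to T3.

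Taking the 3 comparisons side by side, the genes formed a few groups. They share libraries pairwise, so the groups describe each gene's own values. The group that rose from T0 to T2 and fell from T2 to T3, with no call between T0 and T3, held 41 genes (27.3%, beside 8.38% of the 11484 genes tested in all 3 comparisons). In these the median log2 CPM over the genes was 4.75 in T0 and 6.12 in T1, then 5.08 in T2 and 4.49 in T3. A group of 30 genes (20%, beside 5.69%) fell from T2 to T3 and was lower in T3 than in T0, with group medians of 7.64 in T0 and 8.64 in T1, then 7.64 in T2 and 7.06 in T3. A group of 26 genes (17.3%, beside 7.43%) was called only for the fall from T2 to T3, and 20 (13.3%, beside 4.95%) were called only for the rise from T0 to T2.

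A further 12 genes were higher than in T0 both in T2 and in T3 and had no call between T2 and T3. They made up 8% of the 150 genes, beside 3.48% of all genes tested in the 3 comparisons, while the share of the 150 higher in T0:T3 as a whole was below that of all genes, as given above. Their group medians were 6.42 in T0 and 8.21 in T1, then 7.10 in T2 and 7.04 in T3. The T2:T3 log2 fold changes of these genes lay between -0.22 and 0.45. ENSECAG00000010847 and rank 3, with a score of 1.91, belonged to them. For rank 3 the CPM was 4.19 to 10.97 in T0, 17.1 to 471 in T1, then 3.39 to 24.3 in T2 and 4.75 to 48.9 in T3, and the T3 level exceeded that of T0 by 1.90 ± 0.52 (SE, adjusted p = 0.016). A further gene, rank 52, was called in T0:T3 alone, with the higher level in T3 (1.52% of all genes), and 20 genes (13.3%, beside 39.9%) were called in none of the 3 comparisons.

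Mares and stallions were also compared, but the T1 values that chose the genes enter these comparisons, and 4 of the 5 libraries of low factor, in which the chosen genes were highest, came from mares. The values between the sexes are therefore a description and support no difference between mares and stallions. Within T1, edgeR called 0 of the 150 genes (0% of all 11109 genes tested), with 125 of the 150 at an unadjusted p below 0.05 beside 38.7% of all genes tested. All 150 log2 fold changes, stallions minus mares, were negative with a median of -1.40. DESeq2 called 110 of the genes (73.3%, beside 28.5% of all genes tested), and edgeR called 139 without T1 replicate 2 (92.7%, beside 43.5%) and 121 without T1 replicate 9 (80.7%, beside 38.4%), all lower in stallions. With the log2 factor as a covariate the median was -0.06, 0 genes were called and 10 had an unadjusted p below 0.05. The share of all genes at this p is not given for that fit. Without the 5 libraries, which left 1 mare and 6 stallions, the median was -0.40. Sex and the factor cannot be told apart with these libraries.

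Over all 37 libraries with period as a term, edgeR called 0 of the genes between the sexes (0.0347% of all 11537 genes tested, 0.0173% in each direction). The median log2 fold change was -0.46 and 149 of 150 values were negative. In edgeR 82 of the 150 had an unadjusted p below 0.05, beside 17% of all genes tested, and DESeq2 called 0. The T1 libraries that chose the genes are among the 37. Without the 5 T1 libraries the median was -0.07 and 1 gene had an unadjusted p below 0.05. The share of all genes at this p is not given for that fit.

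Genes the paper prints by identifier were not eligible, but 11 of the 61 with a mean log2 CPM of at least 3 reached a score of 0.6, which was 18% beside 9.55% of all 7918 genes. The study chose its genes on these libraries, so this is no independent evidence, and the genes below were picked after their values were seen. ANP32A (ENSECAG00000002541), which encodes an acidic nuclear phosphoprotein, had a median CPM of 167 in T0 and 363 in T1, then 187 in T2 and 127 in T3 and a score of 0.96. RPL23A (ENSECAG00000002201), a protein of the large ribosomal subunit, had medians of 228, 565, 302 and 175 and a score of 0.90. A gene of the MHC class I heavy chain family (ENSECAG00000015782), whose products present peptides to T cells, had medians of 598, 1656, 830 and 576 and a score of 0.98. Without the 5 T1 libraries the scores were 0.39 for ANP32A, 0.37 for RPL23A and 0.69 for the MHC class I gene. The highest score among these genes, 1.42, was that of an uncharacterised gene (ENSECAG00000014226), with 0.63 without the 5 libraries. GAPDH, a glycolytic enzyme often used as a reference, had a score of 0.24 and of -0.03 without them, and SDHA, a succinate dehydrogenase subunit, had scores of -0.12 and 0.09.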

How the data were processed

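RNA from the blood of Arabian horses was sequenced in 37 libraries. Per the study's methods, the authors trimmed reads with Flexbar, aligned them to EquCab2.0 with STAR and estimated reads per gene with RSEM; the deposited table holds counts, rounded to whole numbers and not normalized. The smaller deposited tables, 1 per comparison, were not used. Periods and sexes came from the labels.

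The genes were chosen with filterByExpr and TMM in edgeR 4.0.16 (R 4.3.3), with log2 CPM at a prior count of 2. The gene set, the lists and the tests were chosen with earlier results of these data known. Each comparison was fitted with glmQLFit and glmQLFTest over all genes, with Benjamini-Hochberg adjustment, and standard errors were derived from the F statistic. The fits were tested on simulated data. DESeq2 1.42.0 and other settings were alternatives.

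Identifiers matched the reference table in 0 of 26991 cases. The cell type markers and pathway lists, set by symbol, and sequence features were therefore not analysed. Genes were to be named by score, mean, change and spread. Because they carry no names, only 4 identifiers are printed and other members are given by rank. No library was a duplicate (lowest chi-square per degree of freedom within a period 14.45). All 150 genes had at least 22 counts in every library, and 1 CPM rests on 3.81 counts in the smallest library and 10.6 in the median library before TMM scaling.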

Additional observations from a re-analysis of the deposited data

How the results depend on the processing

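Of the 150 genes, 143 stayed among the 150 highest scores with RLE size factors, 148 with a prior count of 0.5, 144 without a filter on low counts, 148 without the genes over 1% of counts and 107 to 120 without single T1 libraries. With means in place of medians 84 stayed, with libraries thinned to the smallest total 99, with mares only 59 (median score 2.12), with stallions only 53 (median score 0.53), and without the 5 T1 libraries of low factor 42. That last setting and the one without TMM factors were chosen after seeing the data. Many scores lay close to the limit.

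With all 37 libraries in 1 fit, 33 genes were called in T2:T3, all lower in T3 (22%, beside 30.7% of all genes tested). In T0:T2 8 were called, all higher in T2 (5.33%, beside 17.6%), and in T0:T3 2 (1.33%, beside 5.96%). The shares of all genes in this paragraph count calls in either direction, and no split by direction is given for this fit. The shares of the 150 genes lay below these totals. Both T0:T3 calls were higher in T3, which turned the balance of that comparison. That fit takes its spread from T1 as well. With the log2 TMM factor as a covariate the calls were 60 in T2:T3 (40%, beside 25.6%), 62 in T0:T3 (41.3%, beside 20.7%, 52 lower) and 0 in T0:T2 (beside 0%). Without TMM factors they were 92 (61.3%, beside 40%), 58 (38.7%, beside 20.2%, 45 lower) and 32 (21.3%, beside 30.5%). For these the cause was not tested. Leaving out single libraries gave 92 calls (61.3%, beside 41.1% of all genes, without T2 replicate 1) to 103 (68.7%, beside 45.4%) in T2:T3. In T0:T3 it gave 27 (18%, beside 14.2%) to 58 (38.7%, beside 20.1%). In T0:T2 it gave 43 (28.7%, beside 25.9%) to 78 (52%, beside 37%, without T2 replicate 4). Between the sexes in T1 it gave 0 (beside 0%) to 139 (92.7%, beside 43.5%), where DESeq2 gave 110 (73.3%, beside 28.5%).

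The numbers in the sample titles do not stand for horses, since replicates 3, 4, 6, 7 and 8 had opposite sexes in T2 and T3. Deviations of same-numbered libraries had r from -0.346 to 0.524 in T2:T3, -0.18 to 0.203 in T0:T3 and -0.124 to 0.267 in T0:T2. With the number as a replicate block, 97 genes were called in T2:T3 (64.7%, beside 46% of all genes tested). In T0:T3 26 were called (17.3%, beside 12.6%) and in T0:T2 58 (38.7%, beside 33.4%). With this block the T2:T3 value of ENSECAG00000010847 became -0.33. That value ranged from -0.21 to 0.23 without single libraries. The T0:T2 value of ENSECAG00000012041 was -0.17 with the TMM covariate. The rise of ENSECAG00000027228 from T0 to T2 lost its call without T0 replicate 1, 2, 3 or 5, in 1 fit of all libraries, with the covariate and without TMM factors, and that of ENSECAG00000012241 without T0 replicate 4 or 5 and in the same 3 settings. That of ENSECAG00000010847 lost its call with the covariate (1.33), and the T0:T3 difference of ENSECAG00000012041 in 1 fit of all libraries (-0.70).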
